A study of Mus musculus with 20 samples.

Results

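A set of 10 genes of the brain endothelium and its barrier was followed in the mouse hippocampus: Cldn5, Pecam1, Flt1, Kdr, Tek, Ly6c1, Slco1a4, Abcb1a, Mfsd2a and Vwf. They were taken by gene name from the table of raw counts, where each name matched 1 row, giving 10 of 25190 genes. The counts come from poly(A)-selected RNA of 20 wild-type male mice of the strain C57BL/6JOlaHsd aged 4 months, with 5 mice in each of 4 groups and 1 library for each mouse. Each mouse carried bilateral cannulas in the CA1 of the dorsal hippocampus and received 2 infusions, and tissue was taken 24 h after behavioural testing had ended. The Vehicle group received artificial cerebrospinal fluid alone. The Control group received small RNAs pooled from the post-mortem hippocampus of people without psychiatric disorders. Pool 1 and Pool 2 received those of separate cohorts of patients with schizophrenia. The study's methods do not name the fluid that carried the small RNAs. Each infused material was a single pool, so the 5 mice of a group are replicates of the mouse and not of the human donors. The cannula and the infusion procedure were shared by all groups. The libraries held 20588280 to 25543939 counts each, and the members had between 132 and 1802 counts in any library.

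Brain capillaries differ from those of most organs in that their endothelial cells are sealed by tight junctions, take up little by vesicles and move nutrients and drugs through dedicated transporters. Signals from the vascular endothelial growth factor (VEGF), angiopoietin and Wnt pathways build and maintain these cells, and pericytes cover them from outside. Endothelial cells are a minority of hippocampal cells, and in bulk tissue fewer cells of this type and less RNA per cell cannot be told apart.

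The promoters of 4 members are shown to place the genes and to mark where short motifs of transcription factors used in endothelium match. Sequences are from RefSeq (GRCm38.p6), which matched 8 of the 10 members, each as a window of 300 bases around the transcription start, 5′ to 3′ on the strand of the gene. Capitals mark matches to CAGGAA (an ETS motif), CTTTGA (TCF/LEF), ACAATG (SOX) or GGGCGG (Sp1) on either strand. Tek and Slco1a4 stand for a member that varied with the others across mice and one that varied little, and Cldn5 and Kdr for a junction protein and a receptor.
Tek, chr4:94739039-94739338, forward strand: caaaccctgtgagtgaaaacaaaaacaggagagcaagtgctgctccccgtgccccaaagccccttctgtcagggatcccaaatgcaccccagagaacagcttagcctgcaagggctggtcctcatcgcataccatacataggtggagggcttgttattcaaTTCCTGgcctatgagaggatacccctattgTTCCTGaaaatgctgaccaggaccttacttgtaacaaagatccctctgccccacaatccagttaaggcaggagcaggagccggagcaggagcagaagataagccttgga
Slco1a4, chr6:141856171-141856470, reverse strand: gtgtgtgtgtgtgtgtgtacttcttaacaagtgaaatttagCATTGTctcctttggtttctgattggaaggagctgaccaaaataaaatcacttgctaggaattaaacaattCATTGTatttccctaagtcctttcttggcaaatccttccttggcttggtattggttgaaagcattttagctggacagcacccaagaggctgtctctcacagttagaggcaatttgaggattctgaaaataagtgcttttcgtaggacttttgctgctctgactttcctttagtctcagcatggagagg
Cldn5, chr16:18776597-18776896, forward strand: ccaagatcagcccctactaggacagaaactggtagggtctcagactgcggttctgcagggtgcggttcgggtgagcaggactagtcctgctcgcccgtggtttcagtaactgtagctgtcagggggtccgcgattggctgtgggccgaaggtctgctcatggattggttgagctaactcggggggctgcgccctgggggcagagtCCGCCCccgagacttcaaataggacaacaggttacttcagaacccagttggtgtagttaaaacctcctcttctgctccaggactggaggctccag
Kdr, chr5:75978406-75978705, reverse strand: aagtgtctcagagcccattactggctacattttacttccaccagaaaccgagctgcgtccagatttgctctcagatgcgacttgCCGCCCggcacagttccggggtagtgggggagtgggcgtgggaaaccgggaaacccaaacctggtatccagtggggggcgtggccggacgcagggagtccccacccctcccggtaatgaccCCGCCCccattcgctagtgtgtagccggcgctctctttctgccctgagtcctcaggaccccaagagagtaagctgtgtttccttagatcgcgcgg

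The ETS letters lay 89 and 59 bases before the start of Tek and were also found in Mfsd2a, so 2 of 8 members held them, against 30.6% of all 32851 promoters of this length. The SOX letters, of which Slco1a4 held 2 copies, were present in 1 of 8 members and in 12.6% of all promoters. TCF/LEF letters were present in 2 of 8 members, Abcb1a and Mfsd2a, and in 16% of all promoters. The Abcb1a window (chr5:8566841-8567140, forward strand) lies upstream of the gene as counted, which starts at 8660077. Sp1 letters were present in 3 of 8, Cldn5, Flt1 and Kdr, and in 35.7% of all promoters. A match of 6 letters describes the sequence only.

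Per kilobase of exon, Cldn5 was the most abundant member, at a mean of 26.4 CPM per kilobase over the 20 mice (CPM, counts scaled to the TMM-adjusted library total). Claudin 5, its product, is the main tight junction protein of brain endothelium, and the gene is a single exon on chromosome 16 (18776847 to 18778262, GRCm38). Ly6c1 followed at 13.07 CPM per kilobase, Slco1a4 at 8.239, Mfsd2a at 6.806, Abcb1a at 4.963, Flt1 at 4.174, Tek at 3.095, Pecam1 at 2.896, Kdr at 1.776 and Vwf at 0.8734. Neighbours in this order were separated in all 20 mice except for Slco1a4 and Mfsd2a, in this order in 18 of 20 mice, and Tek and Pecam1, in this order in 14 of 20. The level of Ly6c1 is less certain than the others, since 32.8% of its 50-base windows also occur in other transcripts, most of them from Ly6c2, and 17.6% of those of Abcb1a occur in other transcripts, mainly Abcb1b. Of the remaining members, Slco1a4 shared 1.61% of its windows and the others less.

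**Figure D1:**
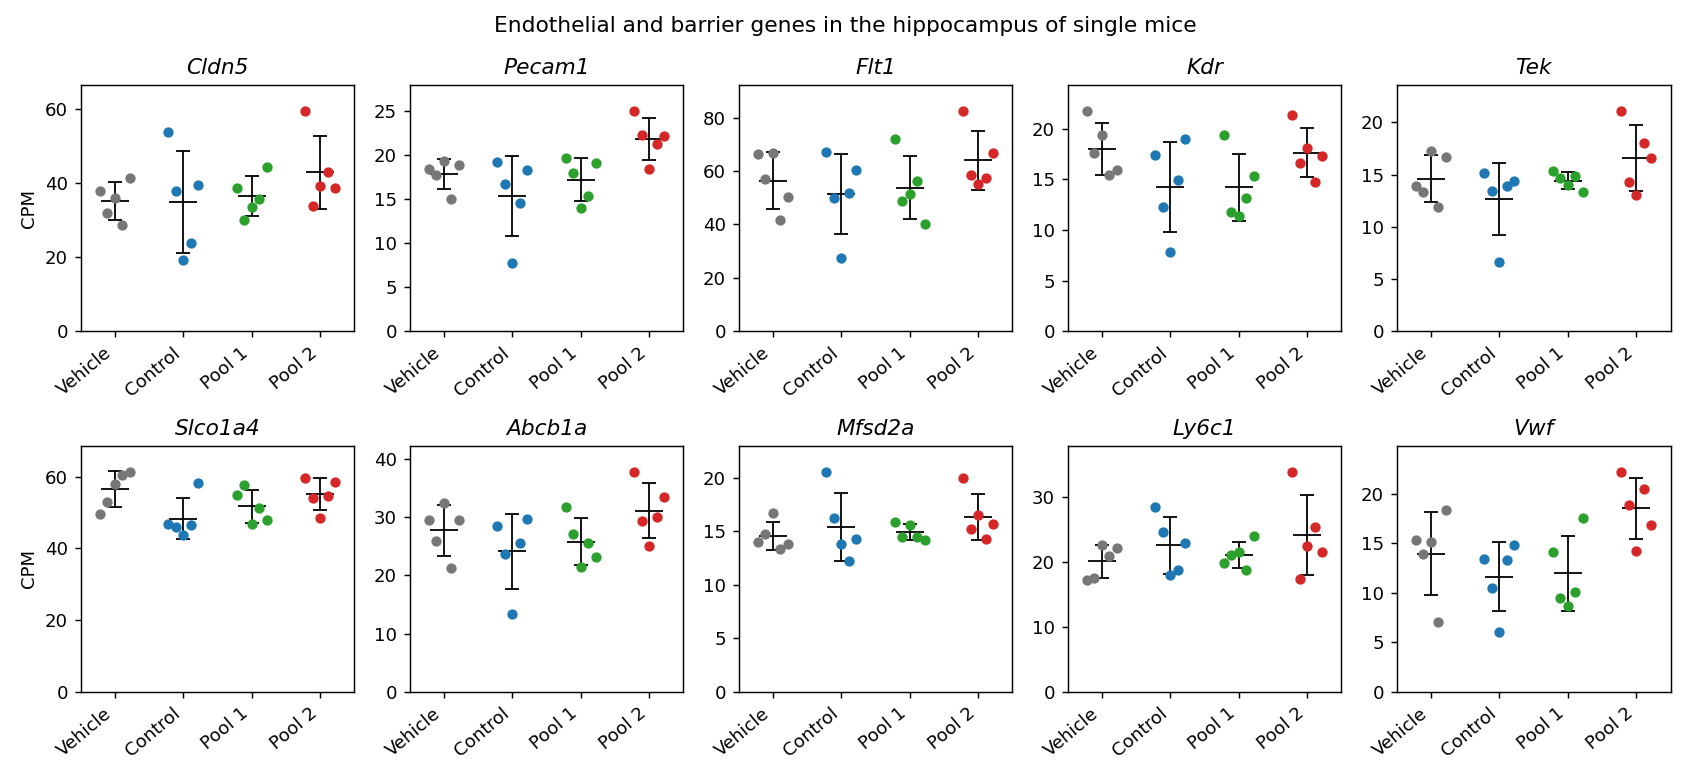
CPM (linear axis from 0) of each gene in single mice, by group, with the mean and SD of 5 mice as black bars. Control replicate 3 is the lowest Control mouse in 9 of the 10 panels, and Pool 2 replicate 1 the highest Pool 2 mouse in all 10.

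Across single mice, 2 libraries stood apart in these 10 genes. Control replicate 3 had the lowest value of all 20 mice in 8 of the 10 genes, all but Ly6c1 and Mfsd2a, with a median of 0.481 times each gene's median over the 20 mice. Pool 2 replicate 1 had the highest value of all 20 mice in 7 of the 10 genes, all but Kdr, Slco1a4 and Mfsd2a, with a median ratio of 1.41. The total counts of these libraries lay within the range of the others. Vehicle replicate 4 was the lowest Vehicle mouse in 8 of the 10 genes, with a median ratio of 0.822.

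**Figure D2:**
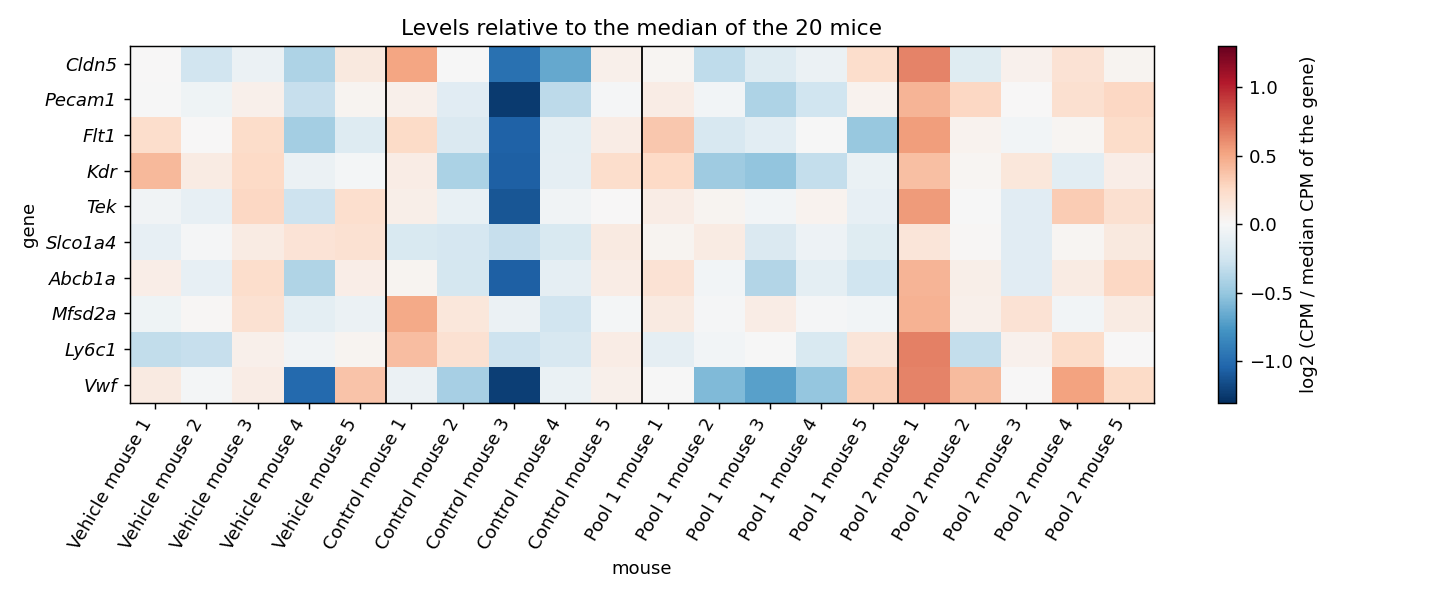
Level of each gene (rows) in each mouse (columns) as log2 of the CPM divided by the median CPM of the gene, with red for above and blue for below the median and lines between the groups. The columns of Control mouse 3 (median ratio 0.481) and Pool 2 mouse 1 (1.41) stand out in most rows, and Slco1a4, Mfsd2a and Ly6c1 vary least.

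The members varied together from mouse to mouse. Over the 20 libraries, the 45 pairs of members had a median Pearson correlation of log2 CPM of 0.667, all 45 above 0, from 0.016 for Slco1a4 with Mfsd2a to 0.929 for Tek with Abcb1a. These values share the same 20 libraries and their scaling and include the differences between groups. Abcb1a and Pecam1 followed the other members most closely, with median correlations of 0.809 and 0.797, and Ly6c1, Mfsd2a and Slco1a4 least, with 0.379, 0.409 and 0.414. The span from the lowest to the highest mouse was 1.4 times for Slco1a4, 1.67 for Mfsd2a and 1.96 for Ly6c1, against 2.79 for Kdr to 3.66 for Vwf among the other members.

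Of 16654 other genes, the 5 whose log2 CPM followed the mean of the members most closely were Cdh5 (r = 0.92, n = 20 libraries), the endothelial adherens junction cadherin, Sox17 (0.917), an endothelial transcription factor, Esam (0.914), an endothelial adhesion molecule, Eng (0.887), a TGF-beta coreceptor, and Tie1 (0.882), the partner of the TEK receptor. Each of the 5 had its lowest value in Control replicate 3 and its highest in Pool 2 replicate 1. They were picked for following the members, so the shared extremes come with that choice and are no separate result.

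Pool 2 mice were compared with Control mice to ask whether patient small RNAs of this cohort went with other levels of these genes than small RNAs of control individuals. The 4 members Pecam1, Vwf, Tek and Abcb1a were higher in Pool 2 mice by 1.29 to 1.592 times, and none was lower. The threshold was that of the study, a log2 fold change of at least 0.3 in size with an unadjusted p under 0.05, here from edgeR's quasi-likelihood test. Of all genes tested, 5.2% passed it upward and 1.01% downward in this comparison. All 10 log2 fold changes were above 0, with a median of 0.31 against 0.00294 for all genes. No member had a Benjamini-Hochberg adjusted p under 0.05 over all genes with edgeR or DESeq2, 5 had an unadjusted edgeR p under 0.05, as had 7.7% of all genes, and the smallest adjusted edgeR p among the members was 0.479.

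Pecam1, the adhesion molecule that endothelial cells share at their contacts, measured 19.2, 16.7, 7.78, 14.6 and 18.3 CPM in the Control mice and 24.9, 22.2, 18.4, 21.2 and 22.2 CPM in the Pool 2 mice. Of the 5 Pool 2 mice, 4 were above the highest Control mouse, and the lowest Pool 2 mouse lay inside the Control range. The log2 fold change was 0.51 (SE 0.16, edgeR, adjusted p = 0.479). Cldn5 measured 53.9, 37.8, 19.3, 23.9 and 39.6 CPM in the Control mice and 59.5, 34.0, 39.3, 43.0 and 38.7 CPM in the Pool 2 mice. The Control mice spanned a wider range than any other group for this gene, 19.3 to 53.9 CPM, and the log2 fold change of 0.30 (SE 0.21, adjusted p = 0.807) did not pass.

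Among the receptors, Tek, which binds angiopoietins and keeps the endothelium quiescent, measured 15.1, 13.4, 6.63, 13.9 and 14.4 CPM in the Control mice and 21.1, 14.3, 13, 18.03 and 16.6 CPM in the Pool 2 mice. Of the 5 Pool 2 mice, 3 exceeded all Control mice, and 4 of the 5 Control mice lay between 13.4 and 15.1 CPM with the fifth at 6.63. The log2 fold change was 0.39 (SE 0.17, edgeR, adjusted p = 0.584). Flt1 and Kdr, which encode the VEGF receptors 1 and 2, the first acting largely as a trap for VEGF and the second as the main signalling receptor, had log2 fold changes of 0.32 (SE 0.20, adjusted p = 0.759) and 0.30 (SE 0.19, adjusted p = 0.747). Flt1 ranged from 27.4 to 67.2 CPM in Control and from 55.2 to 82.4 CPM in Pool 2 mice, and Kdr from 7.78 to 19.0 and from 14.8 to 21.4 CPM, so the groups overlapped in both genes.

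Abcb1a encodes P-glycoprotein, the efflux pump that returns many drugs to the blood. It measured 28.4, 23.7, 13.3, 25.6 and 29.6 CPM in the Control mice and 37.8, 29.4, 25.1, 30.01 and 33.5 CPM in the Pool 2 mice, with 3 of 5 Pool 2 mice above every Control mouse. The log2 fold change was 0.37 (SE 0.17, edgeR, adjusted p = 0.624). Slco1a4, an organic anion transporter of the capillary wall, measured 46.7, 46.0, 43.6, 46.6 and 58.2 CPM in the Control mice and 59.7, 54.1, 48.3, 54.6 and 58.5 CPM in the Pool 2 mice. Its log2 fold change of 0.19 (edgeR, adjusted p = 0.63) had an unadjusted p under 0.05 but was under the fold threshold, and 2 of 5 Pool 2 mice were above the highest Control mouse, replicate 5. Mfsd2a, which carries omega-3 lipids into the brain and restrains transcytosis, differed least, at 15.4 ± 3.19 CPM (SD, n = 5) in Control and 16.4 ± 2.19 CPM in Pool 2 mice, a log2 fold change of 0.08 (SE 0.12, adjusted p = 0.926).

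Vwf, the secreted clotting factor stored in endothelial granules and also made by megakaryocytes, measured 13.4, 10.5, 6.08, 13.3 and 14.8 CPM in the Control mice and 22.2, 18.9, 14.2, 20.4 and 16.8 CPM in the Pool 2 mice. In Pool 2, 4 mice exceeded every Control mouse and the fifth, at 14.2 CPM, lay under the highest Control mouse. It had the largest log2 fold change of the 10 members, 0.67 (SE 0.25, edgeR, adjusted p = 0.529). Ly6c1, a surface protein of capillary endothelium, was at 22.5 ± 4.36 CPM (SD, n = 5) in Control and 24.1 ± 6.15 CPM in Pool 2 mice, a log2 fold change of 0.10 (SE 0.15, adjusted p = 0.932).

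**Figure D3:**
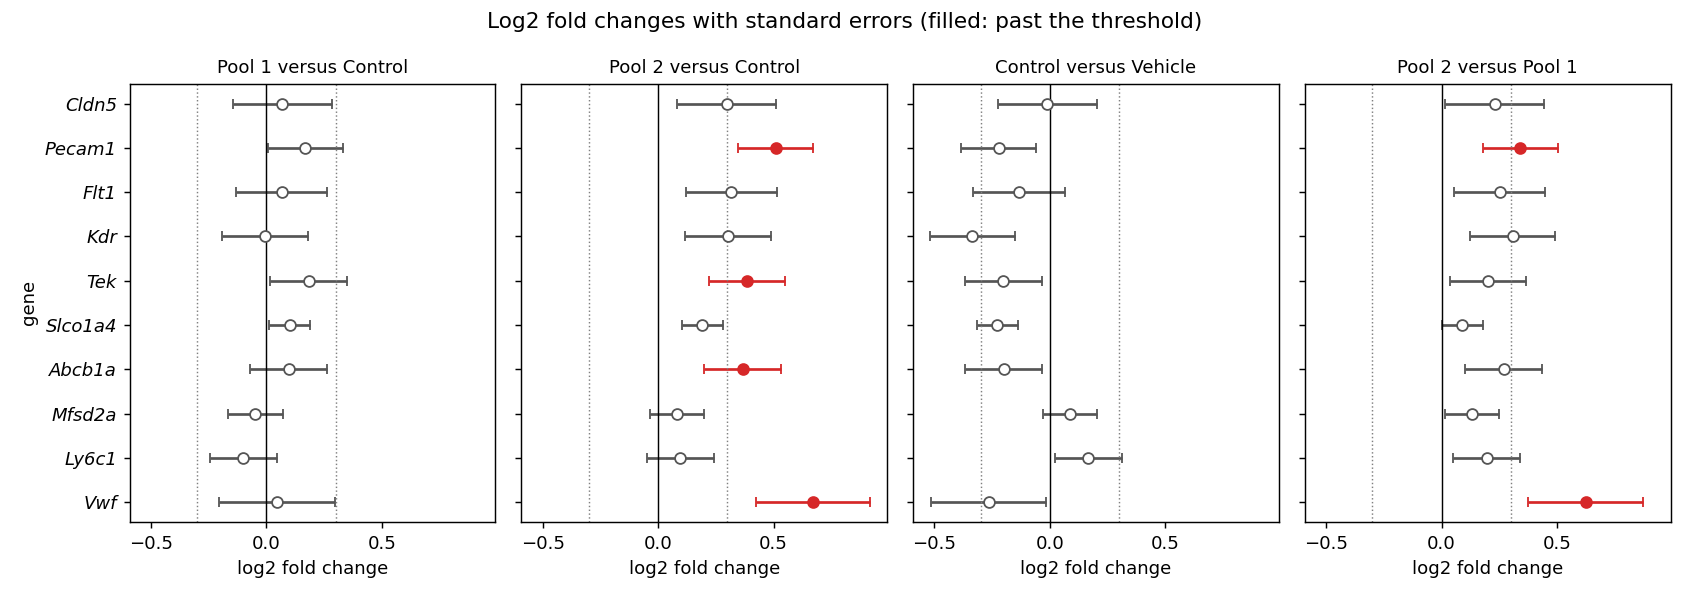
Log2 fold changes from edgeR with standard errors as bars for the 10 genes in 4 comparisons of 5 against 5 mice; red filled points pass the threshold of 0.3 in size (dotted lines) with an unadjusted p under 0.05. In all, 4 genes pass in Pool 2 versus Control, 2 in Pool 2 versus Pool 1 and none in the other 2 panels.

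The count in Pool 2 mice depended most on the 2 libraries that stood apart. Other single libraries also ended calls: Abcb1a did not pass without Control replicate 2 or Pool 2 replicate 5, nor Tek without Pool 2 replicate 4. Without Control replicate 3, 2 members passed, Pecam1 at 0.344 and Vwf at 0.51, and the median log2 fold change was 0.158. Without Pool 2 replicate 1, the same 2 passed, at 0.457 and 0.598, with a median of 0.217. Without both, a choice made after seeing the data, no member passed, 7 of the 10 log2 fold changes were above 0 and the median was 0.0969; Pecam1 had a log2 fold change of 0.291, with an unadjusted p under 0.05, and Vwf of 0.437, without one. Of all genes, 5.2% passed upward with all libraries, 4.43% without Control replicate 3, 3.31% without Pool 2 replicate 1 and 2.88% without both. Among all genes of the count matrix, 0 reached an adjusted p under 0.05 in this comparison with edgeR and 18 did with DESeq2, over all 20 libraries.

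**Figure D4:**
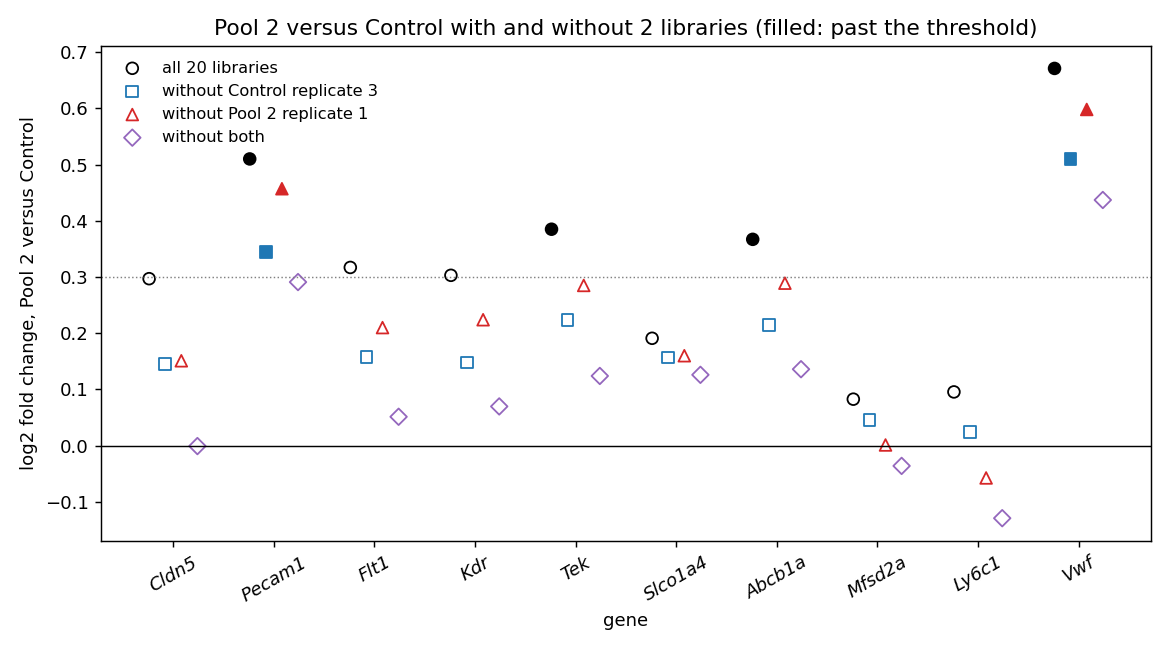
Log2 fold change of each gene in Pool 2 versus Control over all 20 libraries (circles), without Control replicate 3 (squares), without Pool 2 replicate 1 (triangles) and without both (diamonds); filled symbols pass the threshold, whose fold is the dotted line. In all, 4 genes are filled over all libraries, 2 with either library left out and none without both.

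Markers of other cell types also stood out in Pool 2 replicate 1, and their part in the results was not tested. In Control replicate 3 the microglia and monocyte markers summed to 321.1 CPM, red blood cell markers to 68.36 and astrocyte markers to 1591. Each of these sums lay inside the range of the other Control mice. The 11 microglia and monocyte markers summed to 1127 CPM in Pool 2 replicate 1, against a Pool 2 median of 422.4 CPM and 308.8 to 474.2 CPM in the other groups. Of these markers, 6 of 11 were higher in Pool 2 than in Control mice and 1 of 11 without Pool 2 replicate 1. The share of all genes higher was 5.2% with all libraries and 3.31% without Pool 2 replicate 1. Ly6c2, the monocyte paralogue of Ly6c1, was at 0 counts in 9 libraries and reached 53 counts in Pool 2 replicate 1. The 5 red blood cell markers summed to 181.7 CPM in that library, where the other groups reached at most 82.75 CPM, and the 5 astrocyte markers to 2904 CPM, against at most 1901 CPM in the other groups. None of the 5 red blood cell markers and 1 of the 5 astrocyte markers, Gfap, was higher in Pool 2 than in Control mice, where 5.2% of all genes were.

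Markers of mural cells of the vessel wall also had their lowest sums in Control replicate 3. Their highest sums were in Pool 2 replicate 4. Pool 2 replicate 1 was at 293.5 CPM for pericyte and 39.08 CPM for smooth muscle markers. The 10 pericyte markers summed to 165.9 CPM in Control replicate 3, the lowest of the Control mice, whose highest value was 262.7 CPM, and ranged from 237.5 to 297.3 CPM in Pool 2 mice. The 4 smooth muscle markers summed to 8.93 CPM in Control replicate 3 and at most 40.15 CPM in Control mice, and to 34.35 to 102.9 CPM in Pool 2 mice. Leaving aside Pool 2 replicate 4, at 102.9 CPM, the Pool 2 mice were at 34.35 to 42.87 CPM. In all, 3 of 10 pericyte markers (Pdgfrb, Cspg4 and Vtn) and 3 of 4 smooth muscle markers (Acta2, Myh11 and Cnn1) were higher in Pool 2 than in Control mice, with 0 and 1 left without Control replicate 3. The share of all genes higher was 5.2% with all libraries and 4.43% without Control replicate 3. Choroid plexus markers summed to 2277 CPM in Control replicate 3, the highest of that group, whose median was 177.8 CPM. Leptomeningeal fibroblast markers, of which 1 of 7 (Col1a2) was higher, summed to 42.12 to 142.8 CPM in Pool 2 and 29.08 to 55.72 CPM in Control mice. The 142.8 CPM was again in Pool 2 replicate 4, and the next Pool 2 mouse was at 83.16 CPM. The 4 platelet markers, which bear on Vwf, summed to only 1.534 to 3.779 CPM in all 20 mice, none of them was higher in Pool 2 than in Control mice, and Ppbp was at 0 in 4 libraries. The 5 neuronal markers of the hippocampus were present in all mice, at 6231 to 8671 CPM.

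Pool 1 mice, the other patient cohort, were compared with the same Control mice. No member passed the threshold in either direction, where 1.48% of all genes passed upward and 1.99% downward, and none had an unadjusted edgeR p under 0.05, which 5.22% of all genes had, or an adjusted p under 0.05 with edgeR or DESeq2. The log2 fold changes ran from -0.10 for Ly6c1 to 0.18 for Tek, with a median of 0.0666 and 7 of 10 above 0. Pecam1 measured 19.7, 17.98, 13.9, 15.4 and 19.1 CPM in Pool 1 mice, a log2 fold change of 0.17 (SE 0.16, adjusted p = 0.955, edgeR). Vwf measured 14.1, 9.51, 8.69, 10.04 and 17.6 CPM, a wide spread whose mean of 11.99 CPM was close to the 11.6 CPM of Control mice (log2 fold change 0.05, SE 0.25). Tek lay within a narrow range in Pool 1, at 15.3, 14.7, 14.0, 14.8 and 13.3 CPM. Cldn5 was at 36.6 ± 5.39 CPM (SD, n = 5) in Pool 1 and 34.9 ± 13.8 CPM in Control mice. Without Control replicate 3, the log2 fold changes of Cldn5, Flt1, Abcb1a and Vwf turned negative, and none of the 10 passed. In that fit 341 of 25190 genes passed upward and 533 downward.

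Control mice were compared with Vehicle mice to set infusion of human small RNAs beside infusion of artificial cerebrospinal fluid alone. No member passed the threshold, where 1.7% of genes passed upward and 3.41% downward, 1 had an unadjusted edgeR p under 0.05, which 6.64% of genes had, and none an adjusted p under 0.05 with edgeR or DESeq2. Of the log2 fold changes, 8 of 10 were under 0, with a median of -0.201. Slco1a4 measured 49.7, 53.0, 57.8, 60.5 and 61.2 CPM in Vehicle mice, and 4 of the 5 Control mice lay below all of them. Its log2 fold change of -0.23 (SE 0.09, edgeR, adjusted p = 0.734) was under the fold threshold. Kdr measured 21.7, 17.6, 19.4, 15.4 and 15.96 CPM in the Vehicle mice and 17.4, 12.3, 7.78, 15.0 and 19.0 CPM in the Control mice, a log2 fold change of -0.34 (SE 0.19, adjusted p = 0.764). Of the Control mice, 3 of 5 were under the lowest Vehicle mouse for Kdr.

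A further 2 comparisons, of each patient pool with Vehicle mice, were added after seeing the data. In Pool 2 versus Vehicle, no member passed, where 2.8% of genes passed upward and 1.89% downward. Vwf measured 15.4, 13.9, 15.1, 7.06 and 18.4 CPM in Vehicle mice, and its log2 fold change in Pool 2 was 0.41 (SE 0.25, adjusted p = 0.914, edgeR). Pecam1 measured 18.4, 17.8, 19.3, 15.0 and 18.9 CPM in Vehicle mice, with 4 of 5 Pool 2 mice above all of them and a log2 fold change of 0.29 (SE 0.16, adjusted p = 0.907, edgeR). Tek measured 13.9, 13.3, 17.2, 11.9 and 16.7 CPM and Abcb1a 29.5, 25.9, 32.5, 21.2 and 29.6 CPM in Vehicle mice, and their log2 fold changes in Pool 2 were 0.18 (adjusted p = 0.952) and 0.17 (adjusted p = 0.952). In Pool 1 versus Vehicle, no member passed, where 1.06% of genes passed upward and 4.28% downward, and Kdr had the lowest log2 fold change, -0.34 (SE 0.19, adjusted p = 0.839). The 2 comparisons gave no member an unadjusted edgeR p under 0.05, which 5.5% of genes had in Pool 2 and 6.36% in Pool 1, and none an adjusted p under 0.05 with edgeR or DESeq2. The mean of log2 CPM over the 10 members was 4.565 ± 0.168 (SD, n = 5) in Vehicle, 4.396 ± 0.39 in Control, 4.489 ± 0.133 in Pool 1 and 4.753 ± 0.193 in Pool 2 mice. The comparisons share their Control or Vehicle mice, so their values stand side by side and are not independent.

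The patient pools were compared with each other directly. The 2 members Vwf and Pecam1 were higher in Pool 2 than in Pool 1 mice and none was lower, where 5.66% of all genes passed upward and 1.16% downward. All 10 log2 fold changes were above 0, with a median of 0.241 against 0.0191 for all genes. For Vwf the log2 fold change was 0.62 (SE 0.25, edgeR, adjusted p = 0.474), with 3 of 5 Pool 2 mice above every Pool 1 mouse. For Pecam1 it was 0.34 (SE 0.16, edgeR, adjusted p = 0.577), with 4 of 5 above every Pool 1 mouse. No adjusted p of a member was under 0.05 with edgeR or DESeq2, and 2 members had an unadjusted edgeR p under 0.05, as had 8.52% of all genes. Without Pool 2 replicate 1, neither passed, at 0.552 (adjusted p = 0.898, edgeR) and 0.288 (adjusted p = 0.955), and neither passed without Pool 1 replicate 2 or without Pool 1 replicate 3. The share of all genes higher in these fits was 3.67%, 5.17% and 4.61%, in this order. The Vwf call held in the other 17 of 20 fits with a library left out, whereas Pecam1 passed in only 7 of 20 and was also lost with DESeq2, with its size factors and with filterByExpr. Markers of other cell types were higher in this comparison too, 9 of 11 for microglia and monocytes, 4 of 4 for smooth muscle, 3 of 5 for red blood cells, 3 of 7 for leptomeningeal fibroblasts, 2 of 5 for astrocytes (Gfap at a log2 fold change of 0.98) and 1 of 4 for platelets. Without Pool 2 replicate 1, where 3.67% of all genes were higher, these counts were 1 of 11, 3 of 4, 0 of 5, 6 of 7 and 2 of 5 for the first 5 lists. Their part in the result was not tested.

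Other genes of the same biology were followed in 6 lists, 73 genes in all, chosen by function. In Pool 2 versus Control mice, 13 of the 73 were higher and none lower, with a median log2 fold change of 0.214, where 5.2% of all genes were higher. Cdh5, Eng, Sox17 and Tie1, each lowest in Control replicate 3 and highest in Pool 2 replicate 1, were among the 13. In Pool 1 versus Control mice, 0 were higher, with a median of 0.0105, where 1.48% of all genes were higher. Without Control replicate 3 the count of genes higher in Pool 2 than in Control mice was 6, where 4.43% of all genes were higher. Without Pool 2 replicate 1 it was 5, against 3.31% of all genes, and without both it was 5, against 2.88%.

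Of 10 junction genes, 2 were higher in Pool 2 mice, Cdh5 at 14.3 ± 2.09 against 10.2 ± 3.20 CPM (SD, n = 5; log2 fold change 0.48, adjusted p = 0.575, edgeR) and Lsr, a protein of tricellular junctions (0.49, adjusted p = 0.564). Occludin (Ocln), a tight junction partner of claudins, had 0.12 (adjusted p = 0.91). Of 11 transporter genes, 1 was higher, Slc22a8 (0.45, adjusted p = 0.479), an organic anion transporter, and the glucose transporter gene Slc2a1 had 0.23 (adjusted p = 0.58), under the fold threshold. Of 15 further identity genes, 4 were higher, Adgrf5 (0.41, adjusted p = 0.529), Eng (0.46, adjusted p = 0.552), Robo4 (0.50, adjusted p = 0.607) and Sox17 (0.41, adjusted p = 0.63).

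Among 12 VEGF and angiopoietin genes, 3 were higher in Pool 2 mice. Ptprb, the phosphatase that dampens TEK signalling, had a log2 fold change of 0.54 (adjusted p = 0.479, edgeR), Angpt2, a ligand that can oppose it, 0.80 (adjusted p = 0.482) and Tie1 0.39 (adjusted p = 0.595). Angpt2 was scarce, with 23 to 31 counts in Control and 30 to 85 counts in Pool 2 libraries, and every Pool 2 mouse was above every Control mouse, as was true of 0.77% of all genes. Vegfa, the main ligand of Flt1 and Kdr, was at 62.9 ± 12.9 CPM (SD, n = 5) in Pool 2 and 60.3 ± 8.07 CPM in Control mice, a log2 fold change of 0.06 (adjusted p = 0.947, edgeR).

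Of 16 Wnt and barrier induction genes, 1 was higher, Lef1 (0.86, adjusted p = 0.479, edgeR), a transcription factor of canonical Wnt signalling that thalamic neurons also express. Of 9 activation and leak genes, 2 passed, Icam1 (1.15, adjusted p = 0.486), an adhesion molecule for leukocytes that microglia also make, and Selp, which had at most 4 counts in any library and is given no fold. Icam1 averaged 5.23 ± 4.70 CPM (SD, n = 5) in Pool 2 mice and did not pass without Pool 2 replicate 1. Plvap, the protein of fenestrated and leaky vessels, was at 6.799 ± 1.302 CPM in Pool 2 and 7.51 ± 1.43 CPM in Control mice, a log2 fold change of -0.14 (adjusted p = 0.914).

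In Control versus Vehicle mice, 1 of the 73 genes was higher and 5 were lower, where 1.7% and 3.41% of all genes were. The higher gene was Ndp, a ligand of the Wnt pathway in retina and brain vessels. Cgnl1, Slco1c1, Angpt2 and Fzd4 were among those lower. The 5 choroid plexus markers reached 8925 CPM in Vehicle replicate 4, against a Vehicle median of 783.2 CPM, and their part in these calls was not tested. Cgnl1 was at 29.8 ± 26.5 CPM (SD, n = 5) in Vehicle and 13.02 ± 4.41 CPM in Control mice, and Fzd4 at 17.3 ± 8.61 and 11.8 ± 2.40 CPM. Without Vehicle replicate 4 and Pool 2 replicate 1, Cgnl1 and Angpt2 still passed, Slco1c1, Fzd4 and Ndp did not, and Ptprb, Adgrl4 and Icam1 passed as lower. Pool 2 versus Pool 1 mice gave 14 higher and none lower, where 5.66% and 1.16% of all genes were. The median log2 fold change was 0.221, and 9 were higher without Pool 2 replicate 1, where 3.67% of all genes were. Pool 1 versus Vehicle gave 8 lower and none higher, where 4.28% of all genes were lower and 1.06% higher. Without Vehicle replicate 4 and Pool 2 replicate 1, 6 were lower, where 1013 of 25190 genes were. Pool 2 versus Vehicle gave 3 higher and 2 lower, where 2.8% and 1.89% of all genes were. Without those libraries the counts became 1 and 0, where 404 and 382 of 25190 genes were higher and lower. Pdgfrb, the pericyte receptor that endothelial PDGF-B engages, was at 29.6 ± 2.90 CPM (SD, n = 5) in Pool 2, 27.5 ± 4.14 CPM in Pool 1, 23.0 ± 4.46 CPM in Control and 26.3 ± 3.18 CPM in Vehicle mice.

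**Figure D5:**
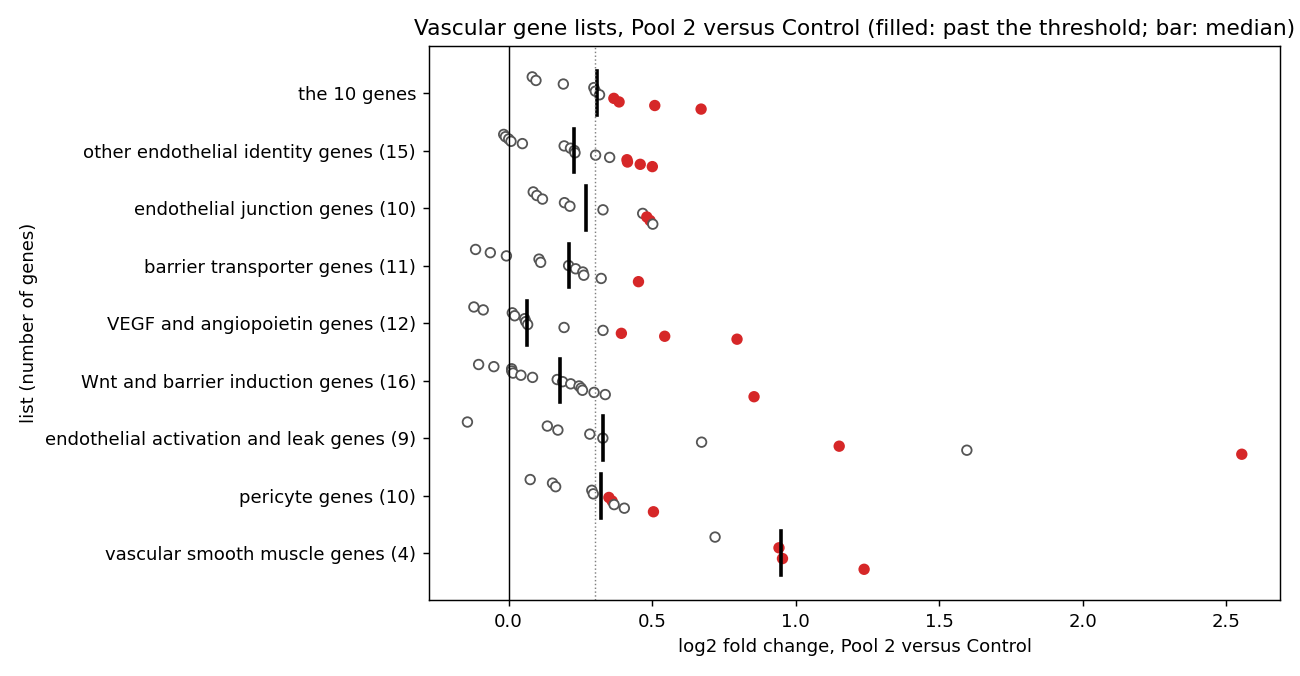
Log2 fold change in Pool 2 versus Control for single genes of 9 lists, with red filled points past the threshold (dotted line, fold of 0.3; unadjusted p under 0.05) and a black bar at the median of each list. The medians are above 0 in all 9 lists, from 0.0633 for VEGF and angiopoietin genes to 0.948 for the 4 smooth muscle genes; the point farthest right is Selp, with at most 4 counts in any library.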

How the data were processed

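The authors deposited 1 table of raw counts per gene for 20 libraries, 1 per mouse. Poly(A) RNA was sequenced as stranded single-end reads of 50 nt in 2 rounds that the authors summed, aligned to GRCm38 and counted per gene by STAR with uniquely mapping reads. Groups were taken from the sample labels. The counts were tested with edgeR 4.0.16 (TMM, robust quasi-likelihood, R 4.3.3) over all 25190 genes and all 20 libraries, without a filter, and p-values were adjusted by Benjamini-Hochberg over all genes. DESeq2 1.42.0, its size factors, 2 filters on low counts, the default spread, only the groups compared, a replicate block and left-out libraries were alternatives. P-values measure the spread between single mice that received 1 pool. The tests were tested on simulated data. The members and gene lists were chosen with earlier results of these data known. All members are named, and of other lists the genes past the threshold (at most 4 per list and comparison, by smallest p) and a few always named ones (Cdh5, Ocln, Slc2a1, Vegfa, Angpt2, Plvap, Pdgfrb). The libraries held a median of 23343139 counts, and replicate libraries were distinct, their counts differing by 6.01 to 46.4 chi-square per degree of freedom over 40 pairs. Some results of the context lists are not reported here.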

Additional observations from a re-analysis of the deposited data

Results flagged for a closer look

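Of 40 sets of 5 mice (10 members in 4 groups), 2 held a mouse far from the other 4, where chance alone marks about 1 in 20 sets. Tek was at 6.63 CPM in Control replicate 3, against 13.4 to 15.1 CPM in the other Control mice. Slco1a4 was at 58.2 CPM in Control replicate 5, against 43.6 to 46.7 CPM in the other Control mice.

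The effects of the patient pools against the same Control mice differed by the test of Pool 2 versus Pool 1 for Vwf, by 0.62 (log2, adjusted p = 0.474, edgeR), and for Pecam1, by 0.34 (log2, adjusted p = 0.577, edgeR); both had an unadjusted p under 0.05. Neither difference passed without Pool 2 replicate 1 alone. With Vehicle replicate 4 or Control replicate 3 left out as well, 1 member passed, where 3.91% or 3.66% of all genes passed upward.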

How the results depend on the processing

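Of the 60 log2 fold changes of members, 10 in each of 6 comparisons, direction and side of the threshold were kept in 60 with the default spread or a mean count of at least 10, 59 with DESeq2 or its size factors, 56 with filterByExpr or the replicate block, 55 with only the 2 groups compared, 54 without Vehicle replicate 4 and Pool 2 replicate 1, and 45 without Control replicate 3 and Pool 2 replicate 1. The cause of the changes below was not tested.

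Members higher in Pool 2 than in Control, 4 with all libraries, were 2 with only the 2 groups compared (Tek and Abcb1a did not pass), 2 without Vehicle replicate 4 and Pool 2 replicate 1, and 0 without Control replicate 3 and Pool 2 replicate 1. The share of all genes higher was 5.2% with all libraries and 3.86%, 3.38% and 2.88% in these fits, in this order. Members higher in Pool 2 than in Pool 1, 2 with all libraries, were 1 with DESeq2, with its size factors, with filterByExpr and in both sets of 18 libraries. Here the share of all genes higher was 5.66% with all libraries and 3.66% to 5.41% in these fits. Members lower in Pool 1 than in Vehicle, 0 with all libraries, were 1 with only the 2 groups compared and 1 without Control replicate 3 and Pool 2 replicate 1. Among 25190 genes, 1078 were lower with all libraries and 1091 and 1232 in these fits.

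With filterByExpr, the log2 fold changes turned to 0.00362 for Kdr in Pool 1 versus Control, 0.00672 for Cldn5 in Control versus Vehicle and 0.00918 for Tek in Pool 1 versus Vehicle. With only the 2 groups compared, they were 0.013 for Kdr in Pool 1 versus Control and 0.000389 for Cldn5 in Control versus Vehicle. Without Control replicate 3 and Pool 2 replicate 1, they turned in Pool 1 versus Control for Cldn5 (-0.0845), Flt1 (-0.0931), Abcb1a (-0.0555) and Vwf (-0.115), in Pool 2 versus Control for Cldn5 (-0.000744), Ly6c1 (-0.129) and Mfsd2a (-0.036), and in Control versus Vehicle for Cldn5 (0.141) and Flt1 (0.0248). Without Vehicle replicate 4 and Pool 2 replicate 1, they turned for Ly6c1 in Pool 2 versus Control (-0.0574), Cldn5 in Pool 1 versus Vehicle (-0.0093) and Flt1 in Pool 2 versus Vehicle (-0.015).

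With each library left out in turn, the count of members higher ranged from 2 to 6 in Pool 2 versus Control, 0 to 3 in Pool 2 versus Pool 1 and 0 to 1 in Pool 2 versus Vehicle, and the count lower from 0 to 2 in Control versus Vehicle and 0 to 1 in Pool 1 versus Vehicle. The share of all genes higher ranged, in the same order, from 3.31% to 5.7%, 3.67% to 6.49% and 1.89% to 3.27%. Genes lower, of 25190, ranged from 659 to 1123 in Control versus Vehicle and 782 to 1330 in Pool 1 versus Vehicle. Log2 fold changes in Pool 1 versus Control ranged from -0.0556 to 0.181 for Abcb1a, -0.0845 to 0.278 for Cldn5, -0.0931 to 0.181 for Flt1, -0.16 to 0.118 for Kdr, -0.124 to 0.076 for Mfsd2a and -0.134 to 0.148 for Vwf. In Control versus Vehicle they ranged from -0.222 to 0.141 for Cldn5, -0.25 to 0.0248 for Flt1 and -0.0378 to 0.167 for Mfsd2a. In Pool 2 versus Control they ranged from -0.0574 to 0.194 for Ly6c1 and -0.00307 to 0.207 for Mfsd2a. Against Vehicle they ranged in Pool 1 from -0.0235 to 0.122 for Cldn5, -0.197 to 0.023 for Flt1, -0.109 to 0.0142 for Pecam1 and -0.0823 to 0.0491 for Tek, and in Pool 2 from -0.112 to 0.0307 for Kdr and -0.0918 to 0.00691 for Slco1a4.

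Same-numbered mice did not deviate together (30 pairs, correlations from -0.319 to 0.278, median 0.0285), and 1 of 20 libraries correlated best with its own number. The replicate block gave 1 member lower in Control versus Vehicle and 1 in Pool 1 versus Vehicle, each time Kdr, and added Kdr in Pool 2 versus Control and in Pool 2 versus Pool 1. Among 25190 genes, 695 and 967 were lower in the first pair and 1190 and 1301 higher in the second. Each member had 132 counts or more in each library, and single libraries moved the calls as given above. With 1 pool per group, the pool and its donors cannot be told apart.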
